A study of Mus musculus with 12 samples.

Results

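The E2F family and its DP partners, which together form the transcription factors that switch cell cycle genes on and off, were followed through terminal erythroid differentiation in the mouse. The members were taken by gene symbol, E2f1 to E2f8, Tfdp1 and Tfdp2, which gave 10 genes of the 29838 in the deposited expression table. All 10 were found, and all 10 passed the filter for the tests, which kept the 12994 genes that reached 1 FPKM in 3 or more libraries. FPKM is the number of fragments of a gene scaled by its transcript length and by the size of the library, so that levels can be set side by side between genes.

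RNA was sequenced from erythroblasts of wild-type (WT) C57BL/6 male mice, 8 weeks of age, sorted from bone marrow (BM) that had been depleted of CD45-positive cells. Proerythroblasts (Pro) were gated on high CD44 and low Ter119 staining, and basophilic (Baso), polychromatic (Poly) and orthochromatic (Ortho) erythroblasts on CD44 staining and cell size among Ter119-positive cells. By the study's methods and sorting scheme, cells that took up 7-AAD, a dye of dead cells, and cells stained for CD45, CD11b or GR1 were gated out first. Each of the 4 stages had 3 libraries, and the labels give the genotype WT for all of them and name no treatment. Ortho replicates 2 and 3 were labelled only as erythroblasts in their cell type field and were placed in Ortho by their titles. Whether the 3 libraries of a stage came from separate animals is not given in the sources used here, so p-values measure only the spread between these libraries, which may be technical.

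Depth is unknown, since the lowest FPKM values did not fall on steps that single fragments would leave. Of all FPKM in a Pro library, hemoglobin genes took 8.44 ± 1.95% (SD, n = 3). Their share stood at 35.1 ± 1.79% in Baso, 36.6 ± 1.56% in Poly and 49.6 ± 2.74% in Ortho. Across all genes tested, the median log2 fold change against Pro stood at -0.23 in Baso, -0.20 in Poly and -0.42 in Ortho. After the hemoglobin genes were left out and the libraries were rescaled it was 0.03 in Baso and -0.03 in Ortho, so changes are also given on that scale where it matters. Markers of other cells were present in every stage and moved with the stages, although the gate on CD45, CD11b and GR1 would remove neutrophils, macrophages and lymphocytes. The summed FPKM of 8 neutrophil markers was 6664 to 8426 in Pro, 11588 to 13649 in Baso, 14950 to 17743 in Poly and 13267 to 16514 in Ortho, and 8 of 8 were higher than in Pro at each later stage (adjusted p under 0.05, limma). The sum of 8 B cell markers was 142 to 227 in Pro and 442 to 455 in Ortho. The sum of 8 macrophage markers was 17.9 to 22.2 in Pro and 36.4 to 43.8 in Ortho, that of 6 T and NK cell markers 20.7 to 28.9 and 33.1 to 39.4, and that of 8 megakaryocyte markers 79.7 to 138 and 47.1 to 55.9. No marker on these lists was at 0 in all libraries, and their part in the results was not tested. The 10 erythroid markers summed to between 21111 and 32412 in Pro and between 168428 and 200974 in Ortho. Most of this sum was Hba-a1 and Hbb-bs, with means of 92608 and 86860 FPKM in Ortho. Of the 10 markers 6 were higher and 3 lower in Ortho than in Pro (adjusted p under 0.05, limma), against 22.7% and 53.2% of all genes. In sorted populations such as these, fewer cells of a type and less RNA per cell cannot be told apart.

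E2F proteins bind promoters of genes for DNA replication and mitosis. E2F1, E2F2 and E2F3 activate transcription and are held in check by the retinoblastoma protein RB1. E2F4 and E2F5 act mainly as repressors with the related pocket proteins p107 and p130, and E2F6 represses together with Polycomb proteins and does not bind pocket proteins. These members bind DNA as a heterodimer with DP1 (Tfdp1) or DP2 (Tfdp2), whereas the atypical repressors E2F7 and E2F8 bind without a DP partner. Terminal erythroid differentiation couples the last cell divisions to hemoglobin synthesis, cell cycle exit and nuclear condensation. Mice without E2F4 or E2F2 are known to have defects of red cell production.

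Several E2f genes are themselves known targets of E2F, so the promoters of the members were searched for E2F binding words. RefSeq promoter windows on GRCm38.p6, from 250 bases before to 50 after an annotated start, were on hand for 8 of the 10 members in 12 windows, with none for E2f4 and E2f5. The words TTTCCCGC, TTTGGCGC, TTTCGCGC and TTTGCCGC were searched on both strands. A word was found in windows of 4 members, E2f2, E2f3, E2f7 and Tfdp1, against 2.61% of the 27025 genes in the same table and 2.26% of all 32851 windows. For Tfdp1 a second window, which overlaps the first, held the same word at the same place in the genome. A window with the word is printed for each of the 4 members. Each is written 5′ to 3′ on the strand of the gene, with the E2F word in capitals. For E2f3, E2f7 and Tfdp1 the word lies on the reverse strand, so that the capitals show its reverse complement.
E2f2 promoter, chr4:136172024-136172323, plus strand: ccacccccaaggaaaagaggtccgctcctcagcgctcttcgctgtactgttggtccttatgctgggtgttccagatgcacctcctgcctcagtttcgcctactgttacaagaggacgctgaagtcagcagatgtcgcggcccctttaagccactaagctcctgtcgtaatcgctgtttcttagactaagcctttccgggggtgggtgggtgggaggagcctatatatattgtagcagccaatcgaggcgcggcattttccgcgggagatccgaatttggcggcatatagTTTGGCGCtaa
E2f3 promoter, chr13:29986014-29986313, minus strand: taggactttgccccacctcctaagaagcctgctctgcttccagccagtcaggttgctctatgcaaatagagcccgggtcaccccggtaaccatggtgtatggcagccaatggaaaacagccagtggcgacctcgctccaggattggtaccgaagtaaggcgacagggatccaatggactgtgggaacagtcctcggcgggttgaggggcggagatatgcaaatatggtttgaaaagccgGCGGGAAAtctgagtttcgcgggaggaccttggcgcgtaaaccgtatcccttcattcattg
E2f7 promoter, chr10:110745189-110745488, plus strand: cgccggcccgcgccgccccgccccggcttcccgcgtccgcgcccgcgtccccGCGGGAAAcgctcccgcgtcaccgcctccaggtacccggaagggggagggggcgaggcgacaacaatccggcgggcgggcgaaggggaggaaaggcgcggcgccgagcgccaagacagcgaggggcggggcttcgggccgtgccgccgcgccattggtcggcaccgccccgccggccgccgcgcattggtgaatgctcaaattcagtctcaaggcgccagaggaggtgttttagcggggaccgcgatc
Tfdp1 promoter, chr8:13338501-13338800, plus strand: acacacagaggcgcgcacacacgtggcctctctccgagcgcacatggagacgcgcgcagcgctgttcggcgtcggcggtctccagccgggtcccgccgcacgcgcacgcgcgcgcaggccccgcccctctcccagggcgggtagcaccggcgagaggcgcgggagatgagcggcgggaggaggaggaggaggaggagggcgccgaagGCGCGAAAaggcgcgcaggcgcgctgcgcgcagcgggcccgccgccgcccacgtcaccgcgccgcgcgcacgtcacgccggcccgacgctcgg
Counted from the start base as 0, the word lay at 39 to 46 in E2f2, -11 to -4 in E2f3, -198 to -191 in E2f7 and -43 to -36 in Tfdp1. The windows of E2f1, E2f6, E2f8 and Tfdp2 held none of the 4 words, which says only that these letters are not in them. The E2f1 window, chr2:154569377-154569676, and both Tfdp2 windows, chr9:96258455-96258754 and chr9:96258998-96259297, lay inside the gene spans given below. They did not reach the outermost start of either span, so the promoter there was not searched. The CHR words TTTGAA and TTCGAA, found in promoters of genes that are active late in the cell cycle, were present in 1 window each of E2f2, E2f3 and E2f8 and in 19.2% of all windows. For E2f2 the CHR word was not in the printed window but in another, chr4:136180532-136180831, inside the gene span. In E2f3 this word lay at -23 to -18, beside the E2F word and without overlap. The GATA words AGATAA and TGATAA were in no window of a member and in 18.6% of all windows. A match of letters is a description and no evidence of binding.

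The largest change of the family was in a DP gene. Tfdp2, which encodes DP2, lies on mm10 chr9:96196275-96323646 on the plus strand with 13 exons in its longest transcript. Its FPKM was 49.7, 46.8 and 21.2 in the Pro libraries and 134, 117 and 113 in Baso. It was 122, 129.8 and 129 in Poly and 255, 261 and 269 in Ortho. The libraries of Pro, of Baso and Poly together, and of Ortho formed 3 separate levels, and Pro replicate 3 lay well below the other Pro libraries. Against Pro the log2 fold change was 1.69 ± 0.24 (SE) in Baso (adjusted p = 0.000115, limma on log2(FPKM + 1)), 1.76 in Poly (adjusted p = 6.03e-05) and 2.80 in Ortho (adjusted p = 8.32e-07), with 3 libraries in each stage. The mean rose 6.67-fold from Pro to Ortho. From Poly to Ortho Tfdp2 rose again by 1.04 (adjusted p = 0.0063), whereas Poly and Baso differed by 0.07 ± 0.24 (adjusted p = 0.886). Without Pro replicate 3 the log2 fold changes were 1.31, 1.38 and 2.42, and in each of the 12 fits without 1 library Tfdp2 stayed past the threshold in all 3 comparisons with Pro. The neutrophil and B cell marker sums given above were also higher after Pro, and their part in the rise was not tested. From Poly to Ortho 0 of 8 neutrophil, 0 of 8 B cell and 0 of 2 T and NK cell markers tested passed the adjusted p (limma). Of all genes tested 26.1% passed in this comparison, 4.43% higher and 21.7% lower. In that step 1 of 3 macrophage markers tested was higher and 1 of 8 megakaryocyte markers lower. The part of other cells in this step was not tested either.

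Tfdp1, which encodes DP1, lies on chr8:13338751-13378448 on the plus strand and went the other way. Its FPKM was 171, 170.7 and 179 in Pro, 120.3, 91.8 and 131 in Baso, 127, 128 and 123 in Poly and 85.4, 75.9 and 81.7 in Ortho. All 9 later libraries were below all 3 Pro libraries, and the Ortho libraries were below those of every other stage. The log2 fold change against Pro was -0.61 ± 0.11 in Baso (adjusted p = 0.000599), -0.46 in Poly (adjusted p = 0.00319) and -1.09 in Ortho (adjusted p = 3.1e-06, limma). With the hemoglobin genes left out the fall was 0.60 in Ortho, still past the adjusted p, while the value in Poly was -0.11 (adjusted p = 0.388). The balance of the DP genes does not depend on how a library is scaled. In Pro, Tfdp2 made up 18.2 ± 6.61% of the summed Tfdp1 and Tfdp2 FPKM. Its share was 51.7 ± 5.03% in Baso and 50.1 ± 0.953% in Poly, and it reached 76.4 ± 1.31% in Ortho. The 3 Pro libraries held 22.5%, 21.5% and 10.6%, and the lowest Ortho library held 74.9%. Tfdp1 was thus the more abundant DP transcript in all Pro libraries and Tfdp2 in all Ortho libraries.

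**Figure D1:**
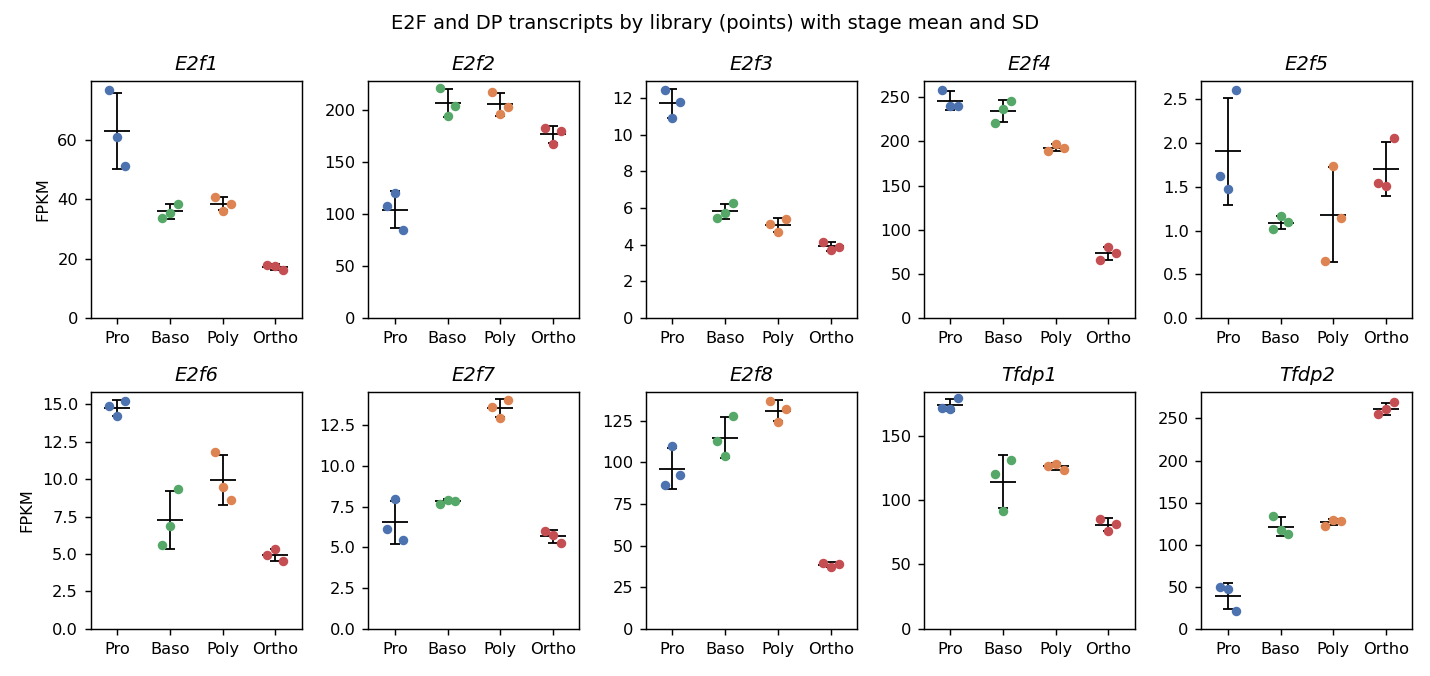
FPKM of the 10 members (vertical axes, each from 0) in the 4 stages (horizontal axis); points are the 3 libraries of a stage, and lines are the stage mean and SD. Tfdp2 reached a mean of 262 in Ortho from 39.2 in Pro, E2f4 and E2f8 were lowest in Ortho at 73.7 and 38.7, and E2f7 peaked in Poly at 13.5.

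Among the activators, E2f2 was the member that rose. E2f2 lies on chr4:136172394-136196057 on the plus strand with 7 exons. Its FPKM was 107, 119.9 and 84.7 in Pro, 221, 194 and 204 in Baso, 217, 195 and 203 in Poly and 182, 167 and 179.9 in Ortho. Every later library was above every Pro library, and Baso and Poly overlapped. The log2 fold change against Pro was 0.99 ± 0.11 in Baso (adjusted p = 2.29e-05), 0.99 in Poly (adjusted p = 1.5e-05) and 0.77 in Ortho (adjusted p = 6.2e-05, limma). With the hemoglobin genes left out the 3 values were 1.31, 1.33 and 1.26. From Poly to Ortho the difference of -0.22 did not pass the threshold (adjusted p = 0.201), but it did when only the 3 later stages were fitted with a replicate block (adjusted p = 0.00605).

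E2f1 and E2f3, the other activators, fell. E2f1, best known for driving entry into S phase, lies on chr2:154559407-154569892 on the minus strand. Its FPKM was 76.8, 61.0 and 51.4 in Pro, 33.6, 35.6 and 38.6 in Baso, 40.7, 36.2 and 38.5 in Poly and 17.9, 17.7 and 16.1 in Ortho. It came down in 2 steps, with overlapping libraries in Baso and Poly between Pro and Ortho. The log2 fold change against Pro was -0.78 ± 0.12 in Baso (adjusted p = 0.000259), -0.68 in Poly (adjusted p = 0.000488) and -1.80 in Ortho (adjusted p = 1.48e-07), and the log2 fold change of Ortho against Poly was -1.12 (adjusted p = 2.92e-05, limma). With the hemoglobin genes left out E2f1 was at -0.47 in Baso (adjusted p = 0.0106) and -0.34 in Poly (adjusted p = 0.0392, limma) against Pro. E2f3, on chr13:29906575-29986063 on the minus strand, was a low-level transcript. It had 12.4, 10.9 and 11.8 FPKM in Pro, 5.48, 5.74 and 6.28 in Baso, 5.12, 4.67 and 5.41 in Poly and 4.17, 3.71 and 3.86 in Ortho. Most of its fall was present at Baso, with log2 fold changes against Pro of -0.89 ± 0.09 (adjusted p = 1.08e-05), -1.07 in Poly (adjusted p = 1.81e-06) and -1.37 in Ortho (adjusted p = 1.06e-07, limma). Its further step from Poly to Ortho, -0.30 (adjusted p = 0.0257), was lost with the hemoglobin genes left out. Within the activators, E2f2 made up 58.1 ± 4.0% of the summed FPKM of the 3 genes in Pro. Its part stood at 83.1 ± 1.61% in Baso, 82.5 ± 0.250% in Poly and 89.3 ± 0.696% in Ortho.

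E2f4, the main repressor of the family, was the most abundant member in Pro and Baso and then dropped at the last stage. It lies on chr8:105297663-105305370 on the plus strand with 10 exons. Its FPKM was 259, 240.4 and 239.6 in Pro, 221, 236 and 246 in Baso, 189, 197 and 192 in Poly and 66.2, 80.7 and 74.1 in Ortho. Pro and Baso overlapped, Poly lay just below both, and Ortho was far below all. The log2 fold change against Pro was -1.73 ± 0.08 in Ortho (adjusted p = 9.83e-09), and Ortho against Poly was -1.38 (adjusted p = 1.66e-07, limma). The earlier differences were small and moved with the scaling. Baso against Pro was -0.07 (adjusted p = 0.461) as deposited and 0.24 (adjusted p = 0.0393) with the hemoglobin genes left out. Poly against Pro was -0.35 (adjusted p = 0.00206) as deposited and -0.10 (adjusted p = 0.311) with the libraries centred on their medians. Poly against Baso was -0.28 (adjusted p = 0.0412) and was lost with the hemoglobin genes left out (adjusted p = 0.0871). It stayed past the threshold in 6 of the 12 fits without 1 library, where the adjusted p ran from 0.0305 to 0.134. On the hemoglobin-free scale the fall of E2f4 from Pro to Ortho was 1.24 and still past the threshold.

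E2f5, the other pocket-protein repressor, had the lowest level of the family and did not pass the test of any difference among the stages (adjusted p = 0.0987, limma F test). It lies on chr3:14578641-14606309 on the plus strand. Its FPKM ranged from 1.48 to 2.61 in Pro, 1.02 to 1.16 in Baso, 0.657 to 1.74 in Poly and 1.51 to 2.05 in Ortho, and the libraries of Pro, Poly and Ortho overlapped. For E2f5 the Baso libraries lay below those of Pro and Ortho and overlapped those of Poly. Its exons overlap those of 1810022K09Rik on the opposite strand, which had a mean of 44.5 FPKM in Pro and 23.6 in Ortho, and whether reads were counted by strand is not given in the sources used here, so the level of E2f5 is uncertain.

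E2f6, the Polycomb-linked repressor, fell early. It lies on chr12:16810963-16839742 on the plus strand. Its FPKM was 14.9, 14.2 and 15.2 in Pro, 5.57, 6.85 and 9.35 in Baso, 11.8, 9.45 and 8.61 in Poly and 4.93, 5.33 and 4.50 in Ortho. Every later library was below every Pro library, and Baso and Poly overlapped with a wide spread. The log2 fold change against Pro was -0.96 ± 0.15 in Baso (adjusted p = 3e-04), -0.53 in Poly (adjusted p = 0.00961) and -1.41 in Ortho (adjusted p = 6.39e-06, limma). The value in Poly was -0.21 (adjusted p = 0.241) with the hemoglobin genes left out.

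The atypical repressors E2f7 and E2f8 had their highest means in Poly and dropped sharply at Ortho. E2f8, on chr7:48866429-48881596 on the minus strand, was much the more abundant. It had 86.3, 109.7 and 92.4 FPKM in Pro, 113, 103.6 and 128 in Baso, 137, 124 and 132 in Poly and 39.8, 37.3 and 38.9 in Ortho. Poly lay above Pro without overlap, and Ortho lay below all other stages. The log2 fold change of E2f8 was 0.45 ± 0.10 in Poly against Pro (adjusted p = 0.00188), -1.29 in Ortho against Pro (adjusted p = 3.7e-07) and -1.73 in Ortho against Poly (adjusted p = 1.66e-07, limma). The rise at Baso, 0.26 (adjusted p = 0.0446), was not held with the libraries rescaled to the same sum, where it was 0.08 (adjusted p = 0.557). It passed in 2 of the 12 fits without 1 library, where the adjusted p ran from 0.00768 to 0.17, and it was 0.57 (adjusted p = 0.000591) with the hemoglobin genes left out. E2f7, on chr10:110745439-110787384 on the plus strand, had 6.12, 7.98 and 5.48 FPKM in Pro, 7.67, 7.92 and 7.84 in Baso, 13.6, 12.9 and 14.04 in Poly and 5.98, 5.78 and 5.25 in Ortho. All Poly libraries lay above all others. Its log2 fold change was 0.96 ± 0.11 in Poly against Pro (adjusted p = 1.87e-05), 0.72 in Poly against Baso (adjusted p = 0.00356) and -1.12 in Ortho against Poly (adjusted p = 1.26e-05, limma). Ortho against Pro was -0.16 (adjusted p = 0.206) and turned to 0.26 (adjusted p = 0.0611) with the hemoglobin genes left out. Among the members E2f7 had the only rise from Baso to Poly past the adjusted p. The exons of E2f7 and E2f8 overlap opposite-strand genes whose means were at most 0.0289 FPKM for 1700020G17Rik and 2.08 FPKM for Gm2788.

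**Figure D2:**
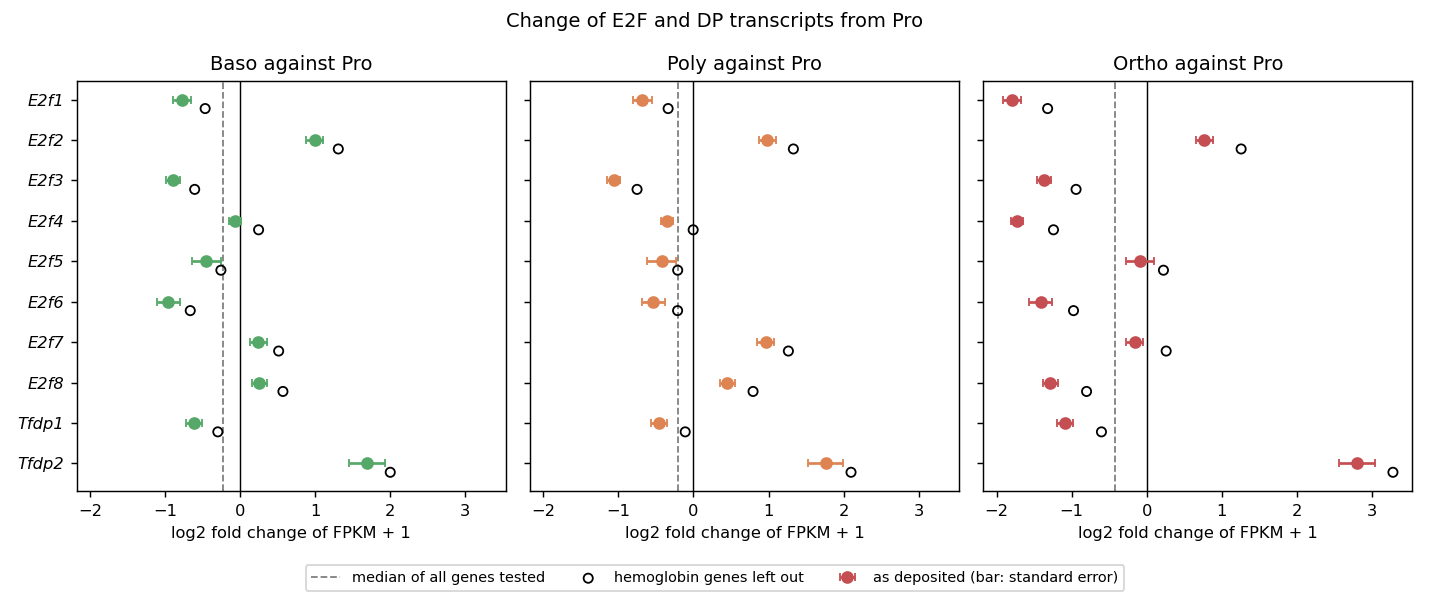
Log2 fold change of FPKM + 1 against Pro (horizontal axes) of the 10 members (vertical axis) in Baso, Poly and Ortho; filled points with SE bars are the deposited values, open points leave out the hemoglobin genes, and the dashed line is the median of all genes tested. Tfdp2 and E2f2 lie to the right of 0 in the 3 panels on either scale, whereas E2f4 crosses 0 in Baso, from -0.07 to 0.24.

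A call was counted where the adjusted p was under 0.05 and the absolute log2 fold change at least 1. In Baso against Pro 1 of 10 members was called, against 10.4% of all genes tested. This was Tfdp2, called higher as were 1.82% of all genes. By the adjusted p alone 7 of 10 passed, against 57%, with 3 higher (14.9% of all genes) and 4 lower (42.1%). In Poly against Pro 2 members were called, against 16.4%, namely Tfdp2 higher (3.59% of all genes) and E2f3 lower (12.8%). By the adjusted p alone 9 passed, against 66.1%, with 4 higher (23.3%) and 5 lower (42.7%). In Ortho against Pro 7 members were called, against 30.1%. Tfdp2 was higher (6.33% of all genes), and E2f1, E2f3, E2f4, E2f6, E2f8 and Tfdp1 were lower (23.8%). By the adjusted p alone 8 passed, against 75.9%, with 2 higher (22.7%) and 6 lower (53.2%). On the hemoglobin-free scale 2 members were called in Baso, Tfdp2 and E2f2, both higher, against 7.01% of all genes. In Poly 3 were called, Tfdp2, E2f2 and E2f7, all higher, against 15.9%, so that E2f3 was no longer called lower. In Ortho 4 were called, Tfdp2 and E2f2 higher and E2f1 and E2f4 lower, against 24.2%. By the adjusted p alone 5 members were higher (27% of all genes) and 4 lower (24.4%) in Baso on that scale. In Poly 4 were higher (35.5%) and 2 lower (27.5%), and in Ortho 2 were higher (34.4%) and 6 lower (34.8%). Without the hemoglobin genes the log2 fold changes in Ortho were -1.32 for E2f1, -0.94 for E2f3, -0.98 for E2f6 and -0.80 for E2f8. The comparisons with Pro share the 3 Pro libraries and are not independent of each other.

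Between Baso and Poly few members moved, near the shares of all genes, whereas most moved between Poly and Ortho. No member was called in Poly against Baso (limma), where 0.516% of all genes were. In that comparison 3 of 10 had an unadjusted p under 0.05, against 29.3% of all genes, and 2 passed the adjusted p, against 12.4%, E2f7 higher (6.58%) and E2f4 lower (5.77%). In Ortho against Poly 5 of 10 were called, against 5.86% of all genes, namely Tfdp2 higher (1.05%) and E2f1, E2f4, E2f7 and E2f8 lower (4.81%). With the libraries rescaled to the same sum Tfdp2 was at 0.85 (adjusted p = 0.0167) and no longer called, and E2f6 was called lower at -1.04. By the adjusted p alone 8 passed, against 26.1%, with 1 higher (4.43%) and 7 lower (21.7%). The median log2 fold change of the members stood at -0.26 in Baso, -0.39 in Poly and -1.19 in Ortho against Pro, beside the medians of all genes given above, and leaving out the hemoglobin genes it stood at -0.0070, -0.057 and -0.70 for the same 3 comparisons. It was 0.08 in Poly against Baso, beside 0.03 for all genes, and -0.76 in Ortho against Poly, beside -0.08. Across all stages 9 of 10 members differed in the F test, which is near the 78.4% of all genes that did.

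The order of the members changed from stage to stage. In Pro the mean FPKM was highest for E2f4 (246), followed by Tfdp1 (174) and then by E2f2 (104) and E2f8 (96.2), whose libraries overlapped. In Baso E2f4 (234) stayed ahead of E2f2 (206), and Tfdp2 (121), E2f8 (115) and Tfdp1 (114) overlapped behind them. In Poly E2f2 (205) and E2f4 (193) overlapped at the top. In Ortho Tfdp2 (262) was first and E2f2 (176) second, with Tfdp1 (81.0) and E2f4 (73.7) overlapping behind them. E2f5 was last in every stage, and E2f3, E2f6 and E2f7 had means of at most 14.8 FPKM throughout. The ratio of E2f2 to E2f4, an activator to a repressor, started at 0.423 ± 0.0728 in Pro, reached 0.883 ± 0.0990 in Baso and 1.07 ± 0.0772 in Poly, and ended at 2.42 ± 0.345 in Ortho.

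The family was also divided by class, as shares of the summed FPKM of the 8 E2f genes within a library, which no scaling of the library can move. From Pro to Ortho, the activators E2f1 to E2f3 held 32.7 ± 2.92%, 40.5 ± 2.02%, 41.6 ± 1.05% and 61.3 ± 2.15% (SD, n = 3). The pocket-protein and Polycomb repressors E2f4 to E2f6 held 48.4 ± 2.96%, 39.6 ± 1.95%, 34.2 ± 1.50% and 24.9 ± 2.48% in the same order of stages. The atypical pair held 18.9 ± 2.27%, 19.96 ± 1.19%, 24.2 ± 0.528% and 13.8 ± 0.367%. E2f2 alone made up 19.0 ± 2.18% of the sum in Pro, 34.3 ± 0.851% in Poly and 54.7 ± 2.16% in Ortho. From Poly to Ortho its share went up although its own mean went from 205 to 176 FPKM, since the sum of the 8 genes was lower in Ortho, with E2f4 at 73.7 against 193 FPKM and E2f8 at 38.7 against 131. No library of Ortho overlapped one of another stage in the activator or repressor share. In the order Pro, Baso, Poly and Ortho the summed E2F transcripts were 544 ± 35.7, 613 ± 24.9, 597 ± 16.6 and 322 ± 3.03 FPKM, and the summed DP transcripts 213 ± 11.1, 236 ± 23.6, 253 ± 4.57 and 343 ± 7.38 FPKM. The ratio of DP to E2F transcripts was 0.391 ± 0.00657 in Pro, stayed at 0.384 ± 0.0324 and 0.424 ± 0.0192 in Baso and Poly, and was 1.06 ± 0.0147 in Ortho. The E2F sum in this ratio includes E2f7 and E2f8, whose proteins bind without a DP partner. These shares and ratios are descriptions and were not tested.

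**Figure D3:**
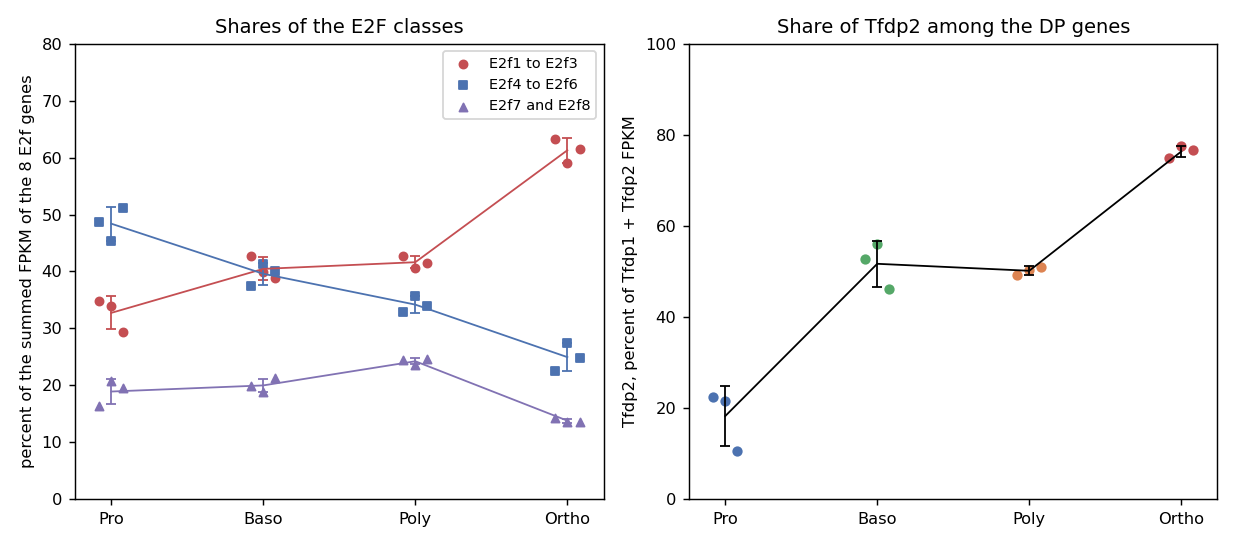
Left, percent of the summed FPKM of the 8 E2f genes held by 3 classes (vertical axis) in each stage; right, Tfdp2 as percent of Tfdp1 and Tfdp2; points are libraries, and lines and bars are stage means and SD. The activator share reached 61.3% and the Tfdp2 share 76.4% in Ortho.

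Genes that work with the family were described from lists of known partners and targets, counted at an adjusted p under 0.05 (limma). Their counts stand beside the shares of all genes tested, of which 14.9% were higher and 42.1% lower than Pro in Baso, 23.3% and 42.7% in Poly, and 22.7% and 53.2% in Ortho. On the hemoglobin-free scale these shares were 27% and 24.4% in Baso, 35.5% and 27.5% in Poly, and 34.4% and 34.8% in Ortho. The pocket proteins and the MuvB core, which joins pocket proteins or MYBL2 to form repressing and activating complexes, made a list of 9 genes (Rb1, Rbl1, Rbl2, Lin9, Lin37, Lin52, Lin54, Rbbp4 and Mybl2). In Baso 1 was higher and 2 lower than in Pro, in Poly 1 and 3, and in Ortho none and 8, with list medians of -0.12, -0.14 and -0.76. With the hemoglobin genes left out the medians in Baso and Poly turned to 0.17 and 0.20, with 2 and 5 higher and none lower, and 6 were still lower in Ortho (median -0.32). Rb1, the pocket protein of the activators, went from 42.9 ± 3.47 FPKM in Pro to 64.4 ± 5.76 in Baso and 67.5 ± 3.20 in Poly and then to 25.6 ± 2.46 in Ortho. Its log2 fold change against Pro was 0.57 in Baso (adjusted p = 0.000313) and -0.72 in Ortho (adjusted p = 2.51e-05, limma), and Ortho against Poly was -1.37 (adjusted p = 6.03e-07), beside -1.38 for E2f4. Rbl1, which encodes p107, fell to 16.5 FPKM in Ortho from 33.3 in Pro (log2 fold change -0.97, adjusted p = 3.32e-07, limma). Rbl2, which encodes p130, had 13.6 and 11.4 FPKM, and its difference of -0.25 in Ortho did not pass the threshold (adjusted p = 0.0567, limma). Rbbp4, a histone-binding subunit and the most abundant gene of the list, had 96.7, 93.4 and 95.5 FPKM in Pro, Baso and Poly and fell to 44.8 in Ortho (log2 fold change -1.09, adjusted p = 8.53e-08, limma). Mybl2, the activating partner of MuvB, fell to 21.3 FPKM in Ortho from 84.4 in Pro (log2 fold change -1.93, adjusted p = 1.06e-08, limma).

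Cyclins and kinases that phosphorylate pocket proteins and so release the activating E2Fs formed a list of 8 genes. In Baso none was higher and 4 were lower than in Pro, in Poly 1 and 4, and in Ortho 2 and 6, with medians of -0.43, -0.27 and -1.16. With the hemoglobin genes left out the median in Baso was -0.12, with 2 higher and 3 lower. In Poly it turned to 0.07, with 3 higher and 3 lower, and in Ortho it was -0.68, with 2 higher and 5 lower. Cdk4, the partner of D-type cyclins, had a mean of 174 FPKM in Pro and of 56.1, 44.7 and 52.6 in the later stages, and its log2 fold change was already -1.61 in Baso (adjusted p = 1.31e-06, limma). Ccne1, which encodes cyclin E1 and is itself an E2F target, had 131 FPKM in Pro, 66.6 in Baso and only 15.4 in Ortho (log2 fold change -3.01 in Ortho, adjusted p = 1.8e-09, limma). Ccnd3, the main D-type cyclin of red cell precursors, was at 266 and 258 FPKM in Pro and Baso, 152 in Poly and 88.9 in Ortho. The 2 that were higher in Ortho were Ccnd1 (log2 fold change 0.88) and Ccnd2 (0.55). Partners of E2F6 in its Polycomb complex, 9 genes, included none that was higher than in Pro at any stage as deposited, and 5 were lower in Baso, 4 in Poly and 6 in Ortho. Pcgf6, the subunit that defines this complex, had log2 fold changes of -1.35, -1.38 and -1.65, and Max, a DNA-binding partner, -0.12, -0.13 and -0.12 with none past the threshold. Cbx3, a heterochromatin protein, had 125, 114, 107 and 48.1 FPKM from Pro to Ortho, with only the difference in Ortho past the threshold (log2 fold change -1.35, adjusted p = 9.81e-08, limma). Yaf2, a subunit of Polycomb complexes, had 14.3, 15.6 and 18.7 FPKM in Pro, Baso and Poly and a log2 fold change of -0.19 in Ortho, with no difference from Pro past the threshold. The list median stood at -0.36 in Baso, -0.20 in Poly and -0.32 in Ortho, beside -0.23, -0.20 and -0.42 for all genes, and it turned to 0.12 in Poly and 0.10 in Ortho with the hemoglobin genes left out, where 2 genes were higher and 4 lower in each. In Baso it was -0.08 on that scale, with 1 gene higher and 4 lower.

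Known targets of the family were counted by cell cycle phase. Of 24 G1/S genes, which E2Fs activate before DNA replication, 18 were lower and 1 higher in Baso than in Pro, 21 and 1 in Poly, and 24 and 0 in Ortho, where all 24 were also called. Their median log2 fold change was -0.59, -0.94 and -1.99. Of 20 G2/M genes, which depend on MuvB and MYBL2, 11 were higher and none lower in Baso, 8 and 1 in Poly, and 0 and 20 in Ortho, with medians of 0.37, 0.23 and -1.24. With the hemoglobin genes left out 13 G1/S genes were lower and 3 higher in Baso (median -0.28) and 24 lower in Ortho (median -1.51), while 18 G2/M genes were higher and 0 lower in both Baso and Poly (medians 0.68 and 0.58) and 15 were lower in Ortho (median -0.76). The 3 most abundant genes of each list had these levels. Pcna, the replication clamp, had means of 657, 488, 386 and 167 FPKM from Pro to Ortho and was lower from Baso on (log2 fold change -0.43 in Baso, adjusted p = 0.00116, limma). Rrm2, a subunit of ribonucleotide reductase, had 441, 475, 467 and 121 FPKM, and its log2 fold changes of 0.11 in Baso (adjusted p = 0.37) and 0.089 in Poly (adjusted p = 0.447, limma) did not pass. Ccna2, which encodes cyclin A2, was the G1/S gene that was higher, with 210.1, 268, 255 and 66.8 FPKM and a log2 fold change of 0.35 in Baso (adjusted p = 0.00145, limma). Ube2c, a ubiquitin-conjugating enzyme of mitotic exit, went from 230.1 FPKM in Pro to 557 in Baso (log2 fold change 1.27, adjusted p = 6.08e-07, limma), 523 in Poly and 148 in Ortho. Mki67, a marker of dividing cells, had 204, 359, 444 and 125 FPKM from Pro to Ortho. Top2a, the topoisomerase that untangles chromosomes, had 289, 304, 344 and 123 FPKM, and its log2 fold changes of 0.076 in Baso (adjusted p = 0.593) and 0.25 in Poly (adjusted p = 0.0705, limma) did not pass. On either scale most G1/S genes were below Pro from Baso on, and most G2/M genes were below Pro at Ortho. Among the members, E2f1, E2f3, E2f6 and Tfdp1 were below Pro at every later stage as deposited. At Ortho E2f4 and E2f8 were below Pro as well, as were all 24 G1/S genes. A link between the members and these lists was not tested. Between Poly and Ortho 23 of 24 G1/S genes and 20 of 20 G2/M genes were lower, with medians of -0.999 and -1.67. Of all genes tested 21.7% were lower in that comparison, with a median of -0.08.

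**Figure D4:**
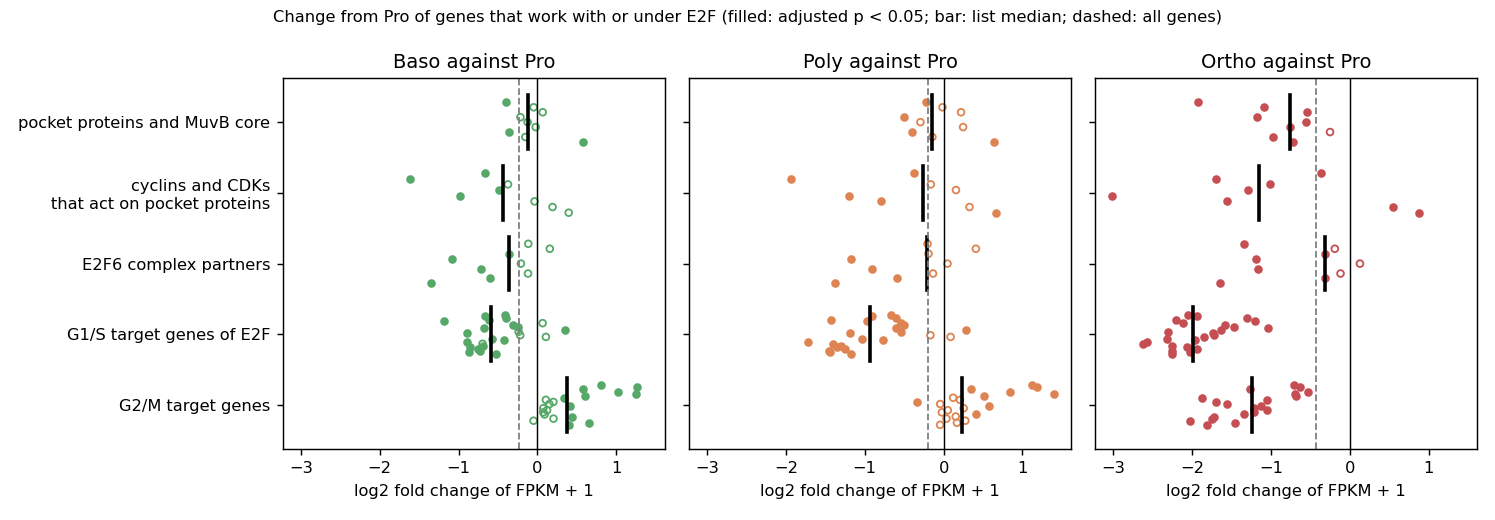
Log2 fold change of FPKM + 1 against Pro (horizontal axes) of the genes of 5 lists (vertical axis); filled points had an adjusted p under 0.05, bars are list medians and the dashed line is the median of all genes tested. The G2/M list lay at a median of 0.37 in Baso and -1.24 in Ortho, whereas the G1/S list lay at -0.59 and -1.99.

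For each member the most similar profiles were sought among 6011 genes with a mean of at least 10 FPKM, by Pearson's r of log2(FPKM + 1) over the 12 libraries. These libraries fall into 4 stages, so r mainly follows the stage means and is a description only. The profile of E2f4 was nearest to those of Gata1, the erythroid transcription factor (r = 0.998), and Slc38a5, an amino acid transporter (r = 0.997). Gata1 had 130.5, 128, 100.1 and 30.9 FPKM in Pro, Baso, Poly and Ortho. E2f2 was nearest to Slc4a1, the band 3 anion exchanger of the red cell membrane (r = 0.990), and to Gch1 (r = 0.983). Slc4a1 had 582 FPKM in Pro and 1973, 1902 and 1672 in the later stages. The profile of E2f8 was nearest to Dck, a kinase that salvages deoxynucleosides (r = 0.991), and to Ncapd3, a condensin subunit (r = 0.989). That of Tfdp2 was nearest to Cdr2 (r = 0.990) and Gcnt1 (r = 0.986), and Cdr2 had 62.2 FPKM in Pro and 309 in Ortho. E2f1 had Mfsd12 (r = 0.996) and Skiv2l (r = 0.990) beside it, E2f3 had Polr2b and Dld (both r = 0.993), and Tfdp1 had Elf2 and Tmem248 (both r = 0.972). The nearest genes were less close for E2f6, Usp47 (r = 0.955) and Kri1 (r = 0.953), for E2f7, Rell1 (r = 0.959) and Plekhf2 (r = 0.956), and for E2f5, Dpagt1 (r = 0.829) and Hmga1b (r = 0.818).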

How the data were processed

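RNA sequencing of 12 libraries, 3 from each of Pro, Baso, Poly and Ortho, was used, and stage and replicate number came from the titles. The labels name Trizol and NEBNext Ultra for the RNA and the libraries, and the methods of the study name other reagents. Cutadapt and Trimmomatic were used by the authors for trimming, and they aligned the reads to mm10 with HISAT2, used SAMtools, counted with featureCounts and deposited FPKM values. The tool for the FPKM, the annotation and the versions are not given in the sources used here. The authors tested counts with DESeq2, which was not repeated on FPKM. Depth is unknown: of 19912 ratios between values under 0.03 FPKM, 3.40% lay in the fullest bin of width 0.1, with no steps of whole fragments.

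The table had 29839 lines, 1 of them a repeat, and 29838 genes. The 12994 genes that reached 1 FPKM in 3 or more libraries were tested on log2(FPKM + 1), a pseudocount of 1, with limma 3.58.1 in R 4.3.3, all libraries in one model, a variance trend, no block, two-sided tests and Benjamini-Hochberg adjustment over all 12994. Fold changes on this scale understate those of low genes. The test was checked on simulated data.

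The members and lists were chosen with earlier results of these data known. Named genes were all members, the 3 most abundant genes of each partner and target list (with Rb1, Rbl1, Rbl2, Mybl2, Ccne1 and Ccnd3), and the 2 genes nearest to each member in profile. Ccnd1, Ccnd2 and Pcgf6 were named after their values were seen. Marker lists are given by sums, although the rule also took their 3 most abundant genes. Other settings tried were pseudocounts of 0.1 and 5, no filter or a mean FPKM of at least 5, libraries rescaled to the same FPKM sum, rescaled with the hemoglobin genes left out or centred on their medians, no variance trend, only the 2 stages compared, the replicate block, the adjusted p alone and each library left out. Deviations of same-numbered libraries from their stage means correlated at 0.156 to 0.319 between Baso, Poly and Ortho and at 0.00524 to 0.0968 with Pro, so the numbers pair the 3 later stages on the values alone. Positions are from GENCODE M21 on mm10, promoters from RefSeq on GRCm38.p6, and figures were drawn with Python 3.11.15.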

Additional observations from a re-analysis of the deposited data

How the results depend on the processing

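The number of called members in Baso against Pro, 1, was 2 with a pseudocount of 0.1, 3 with libraries rescaled to the same sum, 2 with the hemoglobin genes left out, 2 with libraries centred on their medians and 7 by the adjusted p alone. It was 1 to 3 with each library left out, 2 without Pro replicate 1, Pro replicate 2 or Baso replicate 2 and 3 without Baso replicate 3. In Poly against Pro the count of 2 was 3 with a pseudocount of 0.1 (2 higher, 1 lower), 3 with the hemoglobin genes left out or centred medians (3 higher, 0 lower, against 1 and 1), 1 with a pseudocount of 5, 9 by the adjusted p alone and 2 to 4 with each library left out, with 4 without Pro replicate 2. In Ortho against Pro the count of 7 was 4 with the hemoglobin genes left out (2 higher and 2 lower, against 1 and 6), 5 with a pseudocount of 5 (1 and 4), 5 with centred medians (2 and 3), and stayed 7 without any 1 library. In Poly against Baso the 0 was 2 by the adjusted p alone. In Ortho against Poly the 5 was 3 with a pseudocount of 5 or centred medians, 4 with the hemoglobin genes left out (1 higher, 3 lower), 5 with libraries rescaled to the same sum (0 higher, 5 lower, against 1 and 4), 8 by the adjusted p alone and 5 without any 1 library. The number of members that differed in the F test, 9, became 10 without Poly replicate 2, when E2f5 passed as well. The shares of the E2F classes and of Tfdp2 moved by less than 1 SD without any 1 library of the stage. The mean of 3 values always moves by less than that when 1 is left out, so this says nothing about how stable the shares are.

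Of 1115 log2 fold changes of single members under the alternatives, 1050 kept their direction and side of the threshold, 36 fell short of it, 17 newly passed it and 12 changed sign. In many of these fits only the adjusted p could move. The filter, the variance trend, the block, fitting only the stages compared, and leaving out a library of another stage do not alter the log2 fold change. Those that changed sign were E2f2 in Poly against Baso (0.025 with the hemoglobin genes left out, 0.042 without Baso replicate 1, 0.026 without Poly replicate 2, and -0.049 to 0.042 over all left-out libraries), E2f4 in Baso against Pro (0.24 with the hemoglobin genes left out, 0.23 centred), E2f5 in Ortho against Pro (0.22, 0.31 centred, 0.077 without Pro replicate 3, and -0.19 to 0.077 over all left-out libraries) and in Poly against Baso (-0.019 centred, -0.15 without Poly replicate 2, and -0.15 to 0.21 over all left-out libraries), and E2f7 in Ortho against Pro (0.26, 0.24 centred). None of these passed the threshold as deposited, and the cause was not tested. The replicate block in all 12 libraries moved only E2f8 in Baso against Pro past the 0.05 limit of the adjusted p, to 0.0612 (limma), and the block in Baso, Poly and Ortho alone added only E2f2 in Ortho against Poly (adjusted p = 0.00605). The pairing changed no other result and no count of called members, which stayed 0 in Poly against Baso and 5 in Ortho against Poly.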
